A study of Mus musculus with 2 samples.

Results

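The *Foxp3*-expressing regulatory T cells of the tumors were taken as cells with 500 to 5000 detected genes, at most 10% of unique molecular identifiers (UMIs) from mitochondrial genes, a UMI of at least 2 of the 5 T cell genes *Cd3d*, *Cd3e*, *Cd3g*, *Trac* and *Trbc2*, a *Foxp3* UMI, and no UMI of *Cd8a*, *Cd8b1*, *Trdc*, *Cd79a* or *C1qa*. The rule held for 304 of the 31891 cells that passed the first 2 criteria, 181 in the shYT_PBS library and 123 in the shYT_antiPD1 library. Because a *Foxp3* UMI chose the cells, their *Foxp3* level is a description and not a result.

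The cells came from cholangiocarcinomas raised in the mouse liver by hydrodynamic tail vein injection of the intracellular domain of NOTCH (NICD) and myristoylated AKT. Mice of both groups carried doxycycline-inducible shRNAs against YAP and TAZ (shYT) with a ubiquitously expressed transactivator (CAG-rtTA3), so the knockdown was not limited to tumor cells and was present in the control group too. The shRNA was switched on at day 25 and tumors were analyzed at day 33. The groups differed in treatment, which was an anti–PD-1 antibody (clone RMP1-14) injected at days 26, 29 and 32, or PBS. The labels used here give no injection days for PBS. Each group is 1 library. The study gives several animals per group, but no label ties the cells to animals or names the shYT line, and the tissue was digested enzymatically before capture with the Singleron GEXSCOPE V2 chemistry. Differences between the libraries therefore have no replicate and no test. Intervals beside them are 95% intervals that cover counting error only.

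Regulatory T cells restrain other lymphocytes and are held in that state by the transcription factor FOXP3. They consume IL-2 through a high-affinity receptor, remove costimulatory ligands from antigen-presenting cells with CTLA-4, activate latent TGF-β and, in tissues, release repair factors such as amphiregulin. Resting cells recirculate through lymphoid organs with CCR7, while effector cells settle in tissues and tumors. PD-1, the receptor blocked by the antibody, is found on activated conventional and regulatory T cells alike.

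The libraries held 19397 (PBS) and 19451 (anti–PD-1) barcodes with 121713441 and 100807037 UMIs, and 4025 and 4794 cells passed the T cell criterion. Summed over members, 778825 UMIs were available with PBS and 545909 with anti–PD-1, at medians of 3245 and 3862 per cell and ranges of 972 to 21492 and 1429 to 14497. The libraries shared 219 barcodes. Only 3 PBS and 2 anti–PD-1 members carried a shared barcode, and no barcode was a member in both. The libraries differed in sex-linked transcripts: an *Xist* UMI was found in 111 of 181 PBS members and in 0 of 123 anti–PD-1 members (which allows a share of up to 2.44%, taken as 3 counts of the total here and for other zeros), and a UMI of a Y-linked gene in 22 and 67, so sex and treatment cannot be told apart across all members. Members that carried a Y-linked but no *Xist* UMI (male-type members below) numbered 17 and 67, with 60693 and 326548 UMIs, so that many genes had under 10 UMIs in the PBS cells. Over all members, 84 genes of the lists (20 or more UMIs) or of the extreme ratios differed at least 2-fold between anti–PD-1 and PBS. Among male-type members 45 of these ratios lay outside the interval found over all members and 3 more changed sign. Several genes under 2-fold changed sign there too. Male-type values are given beside only some of the genes below, and a gene without one was not shown to hold among male-type members. The shRNA targets were too rare in these cells to check the knockdown, with 1 UMI of *Yap1* in all members and 0 of *Wwtr1*.

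The label was checked against the other markers given for this cell type. *Ikzf2*, which encodes the transcription factor Helios, was detected in 135 of 181 PBS and 95 of 123 anti–PD-1 members, and in 19.8% and 15.0% of conventional CD4 T cells, defined by the same criteria with a *Cd4* UMI and no *Foxp3* UMI. *Ctla4* was detected in 131 and 117 members, *Cd4* in 110 and 73, and *Il2ra*, the high-affinity chain of the IL-2 receptor, in 81 and 48. *Foxp3* itself gave a single UMI in 71 PBS and 59 anti–PD-1 members, and its highest value was 12 and 11 UMIs. All 5 T cell genes were seen in 98 and 78 members, whereas 13 and 5 members had exactly 2 of them. *Foxp3* UMIs were close to absent in B cells and neutrophils. With PBS they were in 0 of 530 B cells (which allows a share of up to 0.566%) and 0.117% of neutrophils, and with anti–PD-1 in 0.453% and 0.0687%. Median depths were 1817 and 2498 UMIs in B cells and 1533 and 1927 in neutrophils.

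Of all T cells, 4.50% (3.88 to 5.18) were members with PBS and 2.57% (2.14 to 3.05) with anti–PD-1. With every cell thinned to 1000 UMIs before the rule was applied, which left out 1075 and 1347 shallower cells, the shares were 3.78% (3.12 to 4.52) and 2.68% (2.15 to 3.28), so the gap narrowed and the intervals overlapped slightly. Among all kept cells they accounted for 1.17% and 0.752%, and for 0.782% and 0.593% after thinning. Relative to conventional CD4 T cells, members were 26.2% (23.0 to 29.7) and 20.8% (17.6 to 24.4) of the 2 populations together.

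At full depth, the gap depended in part on the excluded genes, of which *C1qa*, a macrophage complement gene, left out the most cells. T cells with a *Foxp3* UMI numbered 286 with PBS and 304 with anti–PD-1, or 7.11% (6.33 to 7.94) and 6.34% (5.67 to 7.07) of T cells, and these intervals overlapped. The rule retained 63.3% (57.4 to 68.9) of them with PBS and 40.5% (34.9 to 46.2) with anti–PD-1. A *C1qa* UMI was present in 83 (29.0%) and 146 (48.0%) of them and was the only reason for leaving out 71 and 108. *Cd8b1* left out 7.34% and 12.2% of them and *Cd79a* 3.50% and 9.21%. Of the cells with *C1qa*, 58 and 83 had a single UMI of it. The same gene was found in 29.5% and 42.0% of B cells and in 36.04% and 50.9% of neutrophils, which lack its expression. These B cells and neutrophils were taken without leaving out cells with *C1qa*. *C1qa* was thus detected more widely in each of these cell types with anti–PD-1, but the shares were not thinned. Median depths were 3549.5 and 4371 UMIs in T cells with a *Foxp3* UMI, 1922 and 2649 in these B cells and 1676.5 and 2318 in these neutrophils. With *C1qa* allowed, there were 252 and 231 members, or 6.26% and 4.82% of T cells, so the gap was narrower than under the rule but wider than with none of these genes excluded.

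**Figure D1:**
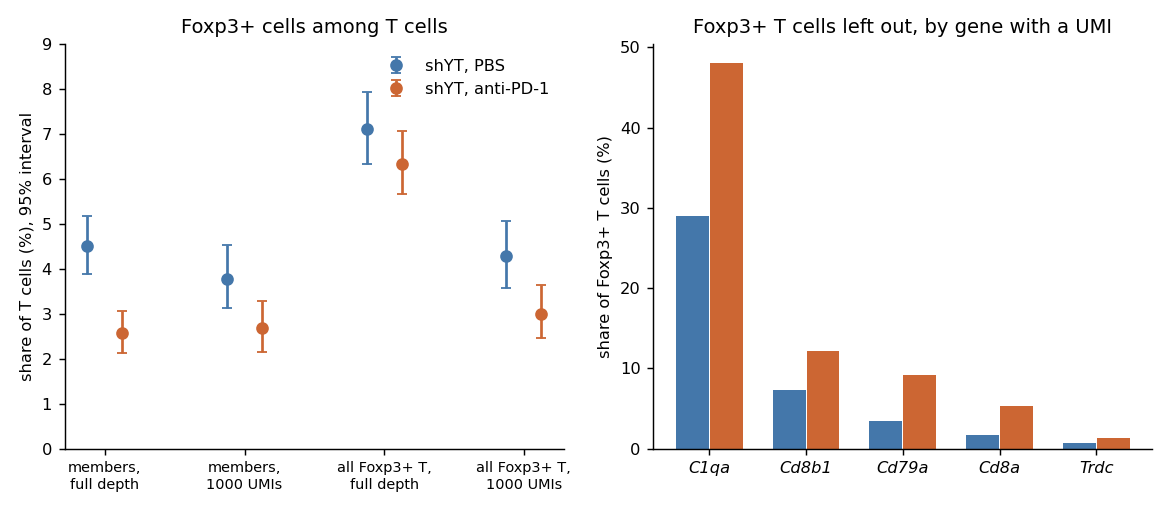
Left, share of T cells (%) that were members and that carried any *Foxp3* UMI, at full depth and thinned to 1000 UMIs per cell, with 95% exact binomial intervals. Right, share of *Foxp3*+ T cells left out by a UMI of each excluded gene (a cell can count under several). At full depth, members were 4.50% of T cells with PBS and 2.57% with anti–PD-1, all *Foxp3*+ T cells 7.11% and 6.34%, and *C1qa* left out 29.0% and 48.0%. At 1000 UMIs per cell, members were 3.78% and 2.68% and all *Foxp3*+ T cells 4.28% and 3.01%.

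RNA of other cell types was present in the members of both libraries, and its part in the results below was not tested. Summed over the list, 5 neutrophil genes gave 402 CPM (the gene's UMIs over the summed UMIs of the members, scaled in the usual way) with PBS and 1407 with anti–PD-1, and they gave 679 and 2899 in conventional CD4 T cells. The macrophage list was at 1994 and 2299 CPM, the epithelial and hepatocyte list at 1189 and 865, the dendritic list at 187 and 253, the NK list at 186 and 233, and the stromal list at 89.9 and 75.1. Genes of pancreatic acinar cells stood at 3.85 and 44.0 CPM. The excluded genes *Cd8a*, *Cd8b1*, *Trdc*, *Cd79a* and *C1qa* were at 0 by construction, *Ccl22* and *Apoa1* were at 0 UMIs in both libraries, and *Ncr1* and *Xcr1* had at most 6 UMIs in either. At most 2 UMIs of 13 lineage genes were carried by 115 of 181 PBS members but only 28 of 123 anti–PD-1 members. No doublet caller was run.

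Against conventional CD4 T cells, the regulatory T cells of both libraries carried a large set of shared differences. In edgeR's quasi-likelihood test with library as a block (n = 2 libraries, Benjamini-Hochberg adjusted p under 0.05), 250 of 9391 genes were higher (2.66%) and 347 were lower (3.7%). At an unadjusted p under 0.05 there were 686 and 826, DESeq2 called 45 and 55, and the fit without the block called 5 and 3. The genes of the gating rules were left out of the calls.

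Of the genes that mark the lineage, *Ikzf2* had 566 CPM in regulatory against 133 in conventional cells with PBS and 639 against 81.8 with anti–PD-1 (log2 fold change 2.44, adjusted p = 6.4e-11). *Ikzf4*, which encodes the related factor Eos, differed by 2.42 (adjusted p = 4.2e-07), *Ctla4* by 1.65 (adjusted p = 7.7e-10) and *Il2ra* by 1.58 (adjusted p = 1.8e-07). Each was higher in the members of both libraries. Among the TNF receptors that deliver costimulation, *Tnfrsf9* was higher by 1.92, *Tnfrsf4* by 1.49 and *Tnfrsf18* by 1.02, and 6 of 13 costimulatory genes tested were higher and 2 lower.

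The effector and tissue list stood out, with 16 of 29 genes higher and 2 lower and a median log2 fold change of 0.65, beside −0.0088 for all genes tested. *Klrg1*, an inhibitory lectin receptor of effector cells, led all called genes with 60.3 CPM against 2.81 with PBS and 80.6 against 4.58 with anti–PD-1 (log2 fold change 4.16, adjusted p = 3.3e-08). Next on this list came *Itgae*, the αE integrin that binds E-cadherin on epithelium, with 199 against 20.2 CPM and 154 against 10.9 (3.44, adjusted p = 6.4e-11). *Il1rl1*, the IL-33 receptor, was higher by 1.598 (adjusted p = 0.0086). *Ccr8*, a chemokine receptor of tumor-resident regulatory T cells, was higher by 1.15 (adjusted p = 0.038), but the adjusted p was 0.96 in DESeq2. Genes of suppression were higher in 7 of 17 and lower in 3, and those that were higher included *Lrrc32*, *Areg*, *Il10*, *Nt5e* and *Itgb8*.

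The resting and lymphoid list went the other way, with 0 of 18 genes higher and 15 lower (median −1.24). *Tcf7*, a factor of naive and memory cells, stood at 82.2 against 347 CPM with PBS and 71.4 against 288 with anti–PD-1 (−2.11, adjusted p = 1.8e-09). *Igfbp4* differed by −3.45 and *Satb1* by −1.89. Of 8 effector cytokine genes tested, 7 were lower and 0 were higher. *Il2* and *Il4* had 0 UMIs in all members, against 32 and 47 UMIs in the conventional cells of the PBS library and 19 and 45 in those of the anti–PD-1 library. *Il5*, *Il13*, *Il17a*, *Il17f*, *Il21*, *Il3* and *Csf2* were likewise at 0 UMIs in the members of both libraries.

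Among the lowest genes, *Cxcr6*, a chemokine receptor of tissue-resident T cells, had 28.2 against 278 CPM and 25.6 against 280 (−3.42, adjusted p = 1.9e-11), and the chemokine gene *Xcl1* had 47.5 against 551 and 42.1 against 300 (−3.32, adjusted p = 1.1e-11). The γ-chain constant genes *Trgc1*, *Trgc2* and *Trgc4* gave 77, 85 and 69 UMIs in the conventional cells of the PBS library and 0 in its members, so the comparison population is not made of helper cells alone. It can also hold regulatory T cells whose *Foxp3* was not detected, and *Ikzf2* was found in 19.8% and 15.0% of it. The part of such cells in the fold changes was not tested.

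**Figure D2:**
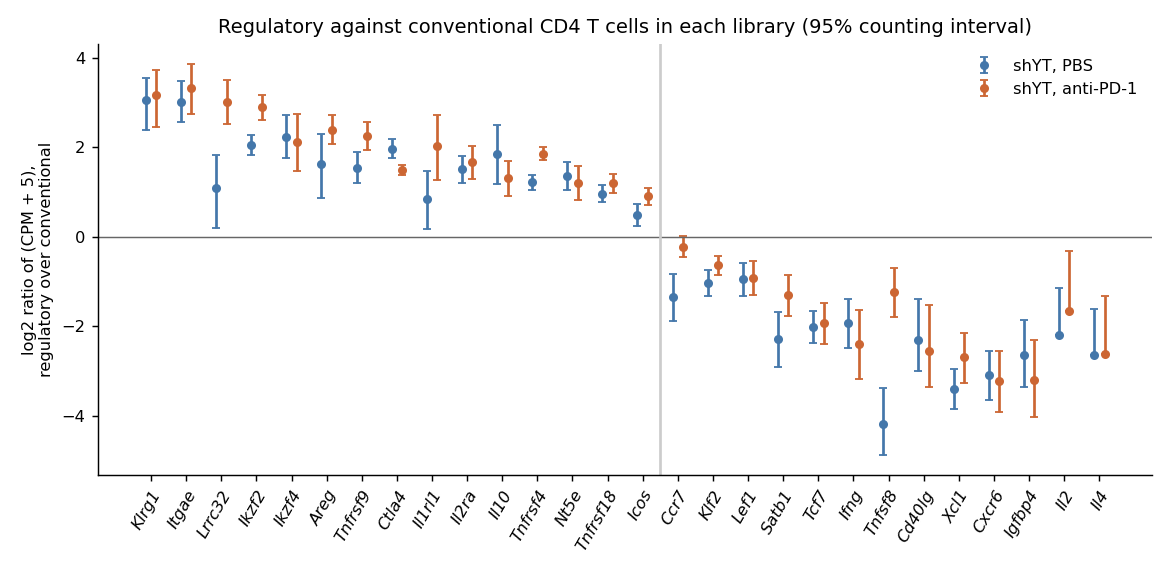
Log2 ratio of (CPM + 5) in regulatory over conventional CD4 T cells for genes called by edgeR, in the PBS library (blue) and the anti–PD-1 library (orange), with 95% counting intervals. Genes left of the vertical line were higher in both libraries. To its right they were lower, and *Ccr7* and *Tnfsf8* in the anti–PD-1 library lay closer to 0 than in the PBS library. For *Ccr7* with anti–PD-1 the interval spans 0 (−0.22, −0.46 to 0.016).

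Cycling genes were higher in regulatory than in conventional cells in 10 of 16 and lower in 0 (median 0.80), and glycolysis genes were higher in 5 of 16 and lower in 0. *Top2a*, a topoisomerase of replicating cells, had 367 against 149 CPM with PBS and 180 against 120 with anti–PD-1 (0.93, adjusted p = 0.00044). The excess of cycling genes was larger with PBS, where the median log2 ratio of the list was 0.93, than with anti–PD-1, where it was 0.56. *Mki67* had 543 against 219 CPM with PBS but 159 against 170 with anti–PD-1 (log2 ratio −0.09, −0.44 to 0.25). A UMI of at least 4 of 16 cycling genes marked 46 of 181 PBS and 29 of 123 anti–PD-1 members. Once each cell was thinned to 1000 UMIs, it marked 21 of 180 and 10 of 123. Among conventional CD4 T cells it marked 84 of 509 (16.5%) and 90 of 467 (19.3%), or 30 of 502 and 20 of 464 after thinning. The immunoglobulin gene *Ighm* also differed, with 1048 against 292 CPM and 1089.9 against 238 (1.95, adjusted p = 1.9e-11). It was found in 81.8% and 88.6% of members, between the 95.8% and 97.6% of B cells and the 20.3% and 30.4% of neutrophils. The other B cell genes were scarce in the members: *Cd79b* had 23 and 14 UMIs and *Ms4a1* had 1 and 2.

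The second question was how the members differed between anti–PD-1 and PBS. Among 6386 genes with 30 or more UMIs over both libraries, 207 were at least 2-fold higher (3.24%) and 207 at least 2-fold lower (3.24%) with anti–PD-1, on the scale of log2(CPM + 5), and the median was −0.07. At any size, 2756 genes were higher and 3630 lower, and the counts of higher and lower genes in the lists below are to be read against these. With median-ratio scaling the 2-fold split was 254 and 160. Among male-type members it was 269 and 102, and among members with at most 2 lineage UMIs 146 and 305. In conventional CD4 T cells 257 of 9094 genes were 2-fold higher (2.83%) and 231 lower (2.54%), with a median of −0.14. Conventional cells share the libraries, so their values are given side by side with those of the members and are no control for them.

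*Ctla4* (mm10, chr1:60887000-60915832) separated the libraries most clearly among the checkpoint receptors. Its level was 584 CPM (532 to 640.4) with PBS and 2026 (1908 to 2149) with anti–PD-1, with a log2 ratio of 1.79 (1.63 to 1.94), or 1.78 among male-type members. It was detected in 72.4% (65.3 to 78.8) and 95.1% (89.7 to 98.2) of members, and in 40.6% and 75.6% at 1000 UMIs per cell. B cells held it in 3.40% and 5.29%. The log2 ratio was 2.27 in conventional CD4 T cells and 1.80 in CD8 T cells, so *Ctla4* was higher in each T cell population. *Pdcd1*, which encodes PD-1, had 194 CPM (164 to 227) and 156 (124 to 193), with a log2 ratio of −0.31 (−0.70 to 0.07) whose interval spans 0. *Tigit* stood at 68.1 and 134 CPM, a ratio of 0.93 (−0.15 with at most 2 lineage UMIs), and *Lag3* at 66.8 and 106, a ratio of 0.63 (−0.18 after thinning). Of 10 inhibitory receptor genes tested, 8 were higher, *Ctla4* alone by 2-fold or more, and 2 were lower. Their median of 0.52 was −0.21 after thinning, when only 3 genes could be tested.

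Costimulatory and TNF receptor family genes, a list that includes ligands, were higher in 11 of 12 genes tested. Of these, 4 were at least 2-fold higher, the ligand gene *Tnfsf8* among them, and 0 at least 2-fold lower. The median log2 ratio was 0.84, against 0.31 over these genes in conventional CD4 T cells. *Icos*, a CD28 relative needed for effector regulatory cells, had 275 CPM (239 to 314) with PBS and 619 (555 to 689) with anti–PD-1. *Tnfrsf9* had 186 and 385 CPM, and *Tnfrsf4*, which encodes OX40, had 742 and 1419.7. *Tnfrsf18*, which encodes GITR, was at 526 and 540.4 CPM, within counting error. *Tnfsf8*, the CD30 ligand, had 6 and 27 UMIs (ratio 2.10, or 0.63 with at most 2 lineage UMIs), whereas its receptor gene *Tnfrsf8* had 19 and 3 (−1.49).

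Of 14 suppressive molecules tested, 4 were higher by 2-fold or more and 0 lower by as much. At any size 7 were higher and 7 lower, which is close to the split of all genes. *Lrrc32* (chr7:98489283-98502181) encodes GARP, the docking receptor for latent TGF-β on activated regulatory T cells. It gave 10 UMIs in 9 PBS members and 100 UMIs in 53 anti–PD-1 members, or 12.8 CPM (6.16 to 23.6) and 183 (149 to 223), with a log2 ratio of 3.40 (2.65 to 4.13) that was 3.16 among male-type members and 1.83 after thinning. It was found in 4.97% and 43.1% of members, and in 1.67% and 20.3% at 1000 UMIs, but in 0.982% and 2.78% of conventional CD4 T cells and 1.13% and 0.302% of B cells. The log2 ratio of *Lrrc32* was 1.48 (0.77 to 2.02) in conventional CD4 T cells and −0.43 in CD8 T cells. *Areg* (chr5:91139599-91148432), the gene of amphiregulin, had 23 UMIs in 14 members and 202 in 43, or 29.5 CPM (18.7 to 44.3) and 370.0 (321 to 425), with a ratio of 3.44 (2.88 to 4.02) that was 2.27 after thinning. Male-type members had 0 and 96 UMIs of it. Conventional CD4 T cells had 6.18 and 66.4 CPM of *Areg* (ratio 2.67, 2.09 to 3.19), CD8 T cells a ratio of 1.35, and neutrophils 0 and 2.35 CPM.

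*Il10* had 34 and 92 UMIs, in 16 and 23 members, so few cells carried it. *Gzmb*, a cytotoxic protease gene, had 9 and 42 UMIs in 6 and 22 members. For *Tgfb1* (214 and 238 CPM), *Itgb8*, the integrin chain that activates TGF-β (77.0 and 71.4), and *Entpd1*, which encodes CD39 (74.5 and 67.8), the interval of the ratio spans 0, although *Entpd1* had −1.51 (−2.69 to −0.22) among male-type members. *Nt5e*, which encodes CD73, had 222 and 170 CPM (−0.37). *Fgl2*, a secreted fibrinogen-like protein gene, had 192 and 95 UMIs, with a ratio of −0.49 that was 0.20 with *C1qa* allowed and 0.43 after thinning, and the galectin gene *Lgals3* had 59 and 81, with a ratio of 0.93 that was −0.55 (−1.51 to 0.52) among male-type members. *Penk*, an enkephalin precursor gene, had 273 and 202 CPM from only 28 and 12 cells, and its ratio of −0.43 was 0.71 with no upper limit on detected genes, which adds 1 member to each library, and −1.81 with at most 2 lineage UMIs. Within the TGF-β pathway, 9 of 15 genes tested were higher and 6 lower, beside 2756 and 3630 of all genes. *Smad7* and *Tgif1*, which limit the signal, had log2 ratios of 1.15 and 1.49 (*Smad7* −0.22 among male-type members), and the receptor gene *Tgfbr2* had −0.65 (−0.0055 with at most 2 lineage UMIs).

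**Figure D3:**
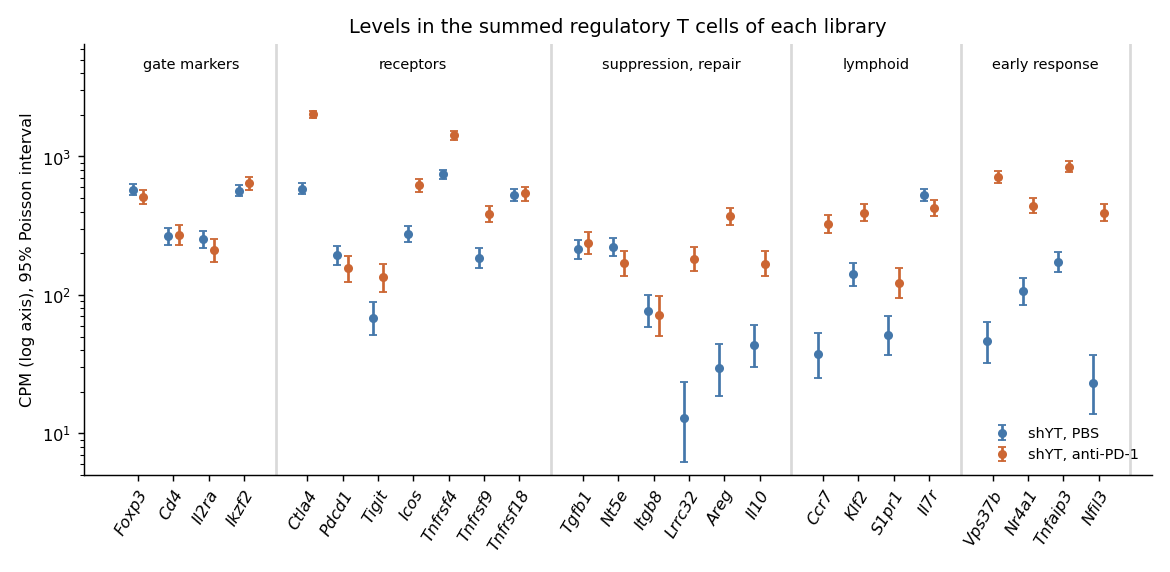
Level in CPM (log axis) of named genes in the summed regulatory T cells of the PBS (blue) and anti–PD-1 (orange) libraries, with 95% Poisson intervals. *Cd4*, *Il2ra*, *Tnfrsf18*, *Tgfb1* and *Itgb8* overlap between libraries, while *Ctla4*, *Lrrc32*, *Areg*, *Ccr7*, *Vps37b* and *Nfil3* are separated.

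Of the genes that mark the lineage, *Ikzf2* stood at 566 CPM with PBS and 639 with anti–PD-1 and *Il2ra* at 252 and 211, with intervals of the log2 ratio that span 0. *Ikzf4* was lower with anti–PD-1, at 122 (98.7 to 149) and 71.4 (50.8 to 97.7). *Foxp3* (chrX:7573644-7595245) stood at 575 CPM (523 to 631) and 511 (453 to 575) in the cells that its own UMI chose. Of 30 transcription factor genes tested, 22 were higher and 8 lower, 4 of them at least 2-fold higher and 0 at least 2-fold lower. *Nfil3* (chr13:52967209-52981073), a basic leucine zipper factor, was the gene with the highest ratio of all ranked genes, with 18 UMIs in 15 PBS members and 215 in 70 anti–PD-1 members (3.83, 3.23 to 4.45, and 2.86 among male-type members). The ratio of *Nfil3* was 2.80 in conventional CD4 T cells and 2.27 in CD8 T cells. Neutrophils carried it as well, at 128 and 413 CPM, and B cells at 3.75 and 59.6. The others were *Satb1*, *Stat5b* and *Bach2*, with ratios of 1.58, 1.10 and 1.03, although *Bach2* had −0.015 among members with 2 or more *Foxp3* UMIs. *Maf*, *Gata3*, *Batf*, *Rora* and *Prdm1* had ratios between −0.09 and 0.49.

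In the IL-2 pathway the signaling chains *Il2rb* and *Il2rg* had 709 and 471 CPM with PBS and 872 and 687 with anti–PD-1, although the ratio of 0.30 for *Il2rb* was −0.30 (−0.71 to 0.13) among male-type members. *Pim1*, a kinase gene induced by STAT5, had 187 and 482 CPM, with a ratio of 1.34 that was 0.17 (−0.47 to 0.86) among male-type members and 0.49 after thinning, whereas *Cish*, an inhibitor induced by the same factor, had 160.5 and 112 (−0.50). Of the 15 genes, 10 were higher and 5 lower.

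Of 15 genes of resting and recirculating cells, 11 were higher with anti–PD-1 and 4 lower, 7 were at least 2-fold higher, and the median was 0.89. *Ccr7* (chr11:99144196-99155077), the receptor for entry into lymph nodes, had 29 UMIs in 20 PBS members and 179 in 41 anti–PD-1 members, or 37.2 CPM (24.9 to 53.5) and 328 (282 to 379.6), with a log2 ratio of 2.98. *Klf2*, a factor that promotes the expression of *S1pr1*, had 141 and 394 CPM, and *S1pr1*, the receptor for exit from tissue, had 51.4 and 123. In conventional CD4 T cells the same genes had ratios of 1.85, 1.06 and 1.19. *Il7r*, *Tcf7* and *Lef1* were not among the 7, with ratios of −0.32, −0.19 and 0.39. Among male-type members the ratio was 2.90 for *Ccr7* but 0.64 for *Klf2* and 0.66 for *S1pr1*.

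A *Ccr7* UMI was carried by 20 PBS members (11.05%, 6.88 to 16.5) and 41 anti–PD-1 members (33.3%, 25.1 to 42.4). At 1000 UMIs per cell these were 7 of 180 (3.89%, 1.58 to 7.85) and 22 of 123 (17.9%, 11.6 to 25.8). In epithelial cells, which should lack the gene, the shares were 0.299% and 6.56% at median depths of 3522 and 1977 UMIs. After thinning they were 0 of 310, which allows a share of up to 0.968%, and 5 of 98 (5.10%). Neutrophils had 0.933% and 4.26% at full depth. B cells had 219 and 881 CPM of *Ccr7*, and CD8 T cells had a log2 ratio of 1.57. The part of background RNA in the *Ccr7* difference was not tested. Conventional CD4 T cells had 15.5% and 35.5%. A UMI of *Ccr8*, *Klrg1* or *Il1rl1*, all genes of tissue effector cells, was carried by 42 (23.2%) and 38 (30.9%) members, or 10% and 10.6% after thinning. Epithelial cells held it in 0.299% with PBS and 0 of 122 with anti–PD-1, which allows a share of up to 2.46%. Both kinds of UMI were seen in 1 and 10 members, and neither kind in 120 and 54.

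Split by these UMIs, the members of the anti–PD-1 library differed within themselves. The 31 members with a *Ccr7* UMI alone had 402 CPM of *Klf2*, 211 of *S1pr1* and 171 of *Tcf7*, against 249, 83.1 and 24.9 in the 28 members with a tissue effector UMI alone. The tissue effector members had more *Itgae* (249 against 52.7 CPM), *Gata3* (224 against 65.9), *Maf* (499 against 343) and *Il2ra* (341 against 204). In the PBS library, with 19 and 41 such members, *Tcf7* differed in the same direction (244 CPM in the *Ccr7* subset against 21.0), as did *S1pr1* (58.9 against 42.0), *Maf* (345 in the tissue effector subset against 151) and *Gata3* (71.5 against 50.5, from 17 and 6 UMIs), but *Klf2*, *Itgae* and *Il2ra* did not (tissue effector against *Ccr7* subset, *Klf2* 156 against 109, *Itgae* 156 against 168 and *Il2ra* 214 against 286 CPM). The *Ccr7* members of the libraries were unlike in other ways: 11 of 20 with PBS and 8 of 41 with anti–PD-1 carried 4 or more cycling genes, and their median depths were 6195 and 3726 UMIs. These are sums over few cells, given as a description. Among genes that were higher with anti–PD-1, *Ctla4*, *Vps37b* and *Lrrc32* were so in both subsets. *Ctla4* had 395 and 2017 CPM in the *Ccr7* subset and 492 and 2293.5 in the tissue effector subset. *Vps37b* had 0 and 136 UMIs in the former and 11 and 78 in the latter, and *Lrrc32* had 1 and 36 UMIs in the former and 6 and 22 in the latter.

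**Figure D4:**
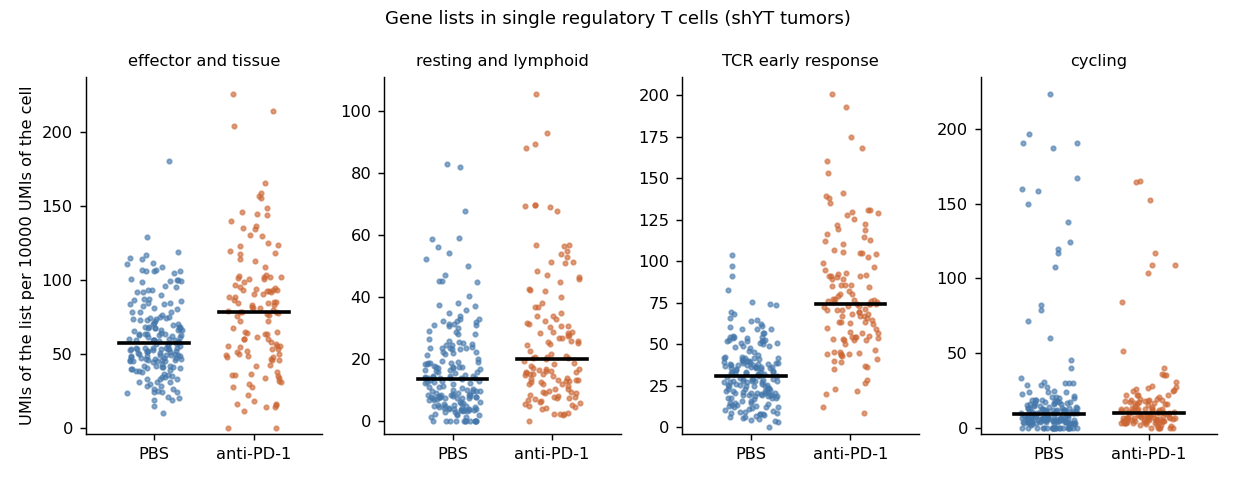
UMIs of 4 gene lists per 10000 UMIs of each cell, 1 point per member (181 PBS, 123 anti–PD-1), with the median as a bar. Medians were 57.4 and 78.7 for effector and tissue genes, 13.6 and 20.04 for resting and lymphoid genes, 31.2 and 74.3 for early T cell receptor response genes, and 9.39 and 10.1 for cycling genes. For the early response, the lower quartile with anti–PD-1 (54.5) lies above the upper quartile with PBS (42.0). The same holds for genes raised by tissue digestion, which are not drawn (81.0 with anti–PD-1 above 78.5 with PBS). Their medians were 62.5 with PBS and 99.6 with anti–PD-1.

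Effector and tissue genes were higher in 19 of 28 and lower in 9, with 5 at least 2-fold higher (median 0.44). *Samsn1*, an adaptor gene, had 254 and 736 CPM, and *Cd83*, a membrane glycoprotein of activated cells, had 77.0 and 211. *Klrg1* had 60.3 and 80.6 CPM, *Itgae* 199 and 154, and *Ccr8* 32.1 and 54.95, each with an interval of the ratio that spans 0. Among male-type members *Itgae* had −0.99 (−1.78 to −0.14), and the ratios of *Klrg1* and *Ccr8* (0.39 and 0.69 over all members) were −0.31 and −0.24. *Il1r2*, a decoy receptor for IL-1, was at 240 and 128 CPM in members, with a ratio of −0.88 that was −1.89 among male-type members and 0.083 with at most 2 lineage UMIs, while in neutrophils it was at 919 and 2827.5. Of 19 trafficking genes, 14 were higher and 5 lower. *Cxcr4* had 101 and 284 CPM, and *Ccr6*, a receptor of mucosal and Th17-type cells, was at 44.9 (31.3 to 62.5) and 18.3 (8.78 to 33.7), with a lower value in conventional CD4 T cells as well (63.5 and 13.2).

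Early response genes of the T cell receptor had the highest median of the 15 functional lists, with 19 of 22 higher, 3 lower, 13 at least 2-fold higher and a median of 1.50, beside 3.24% of all genes called in that direction. *Vps37b* (chr5:124004641-124032270), a subunit of the ESCRT-I sorting complex, had 36 UMIs in 30 members and 388 in 92, or 46.2 (32.4 to 64.0) and 711 CPM (642 to 785), with a ratio of 3.80 (2.85 among male-type members). Conventional CD4 T cells had 86.5 and 941 CPM of *Vps37b* (3.37), and CD8 T cells had a ratio of 2.66. It was also higher with anti–PD-1 outside T cells, at 48.1 and 423 CPM in B cells and 74.8 and 346 in neutrophils. *Nr4a1*, an orphan nuclear receptor gene that reports receptor signals, had 107 and 441 CPM (2.00, 1.65 to 2.36), and *Tnfaip3*, a brake on NF-κB, had 173 and 844 (2.25, 1.98 to 2.53). *Nr4a2*, *Nr4a3*, *Rel* and *Fosl2* had ratios of 2.12, 2.25, 1.98 and 2.69. With at most 2 lineage UMIs the ratio of *Nr4a2* was 0.027 and that of *Nr4a3* 1.22, and among male-type members *Fosl2* had 1.33 (−0.22 to 3.23).

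The same list had a median of 1.10 in conventional CD4 T cells and 1.56 in CD8 T cells, and *Nr4a1* also stood at 266 and 1163 CPM in neutrophils, so these levels were higher beyond the members. For several genes of the list the interval of the ratio spans 0. *Egr1* had 69.3 and 82.4 CPM, *Cd69* 128 and 147, *Rgs1* 492 and 454 and *Irf4* 44.9 and 36.6, and *Egr2* had 18 and 8 UMIs. Genes raised by tissue digestion were higher in 14 of 15, with 5 at least 2-fold higher and a median of 0.55. *Junb* had 755 and 2916 CPM and *Atf3* had 6 and 35 UMIs, whereas *Fos* had 214 and 288 CPM and *Jun* 277 and 267. The part of digestion in the early response was not tested.

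**Figure D5:**
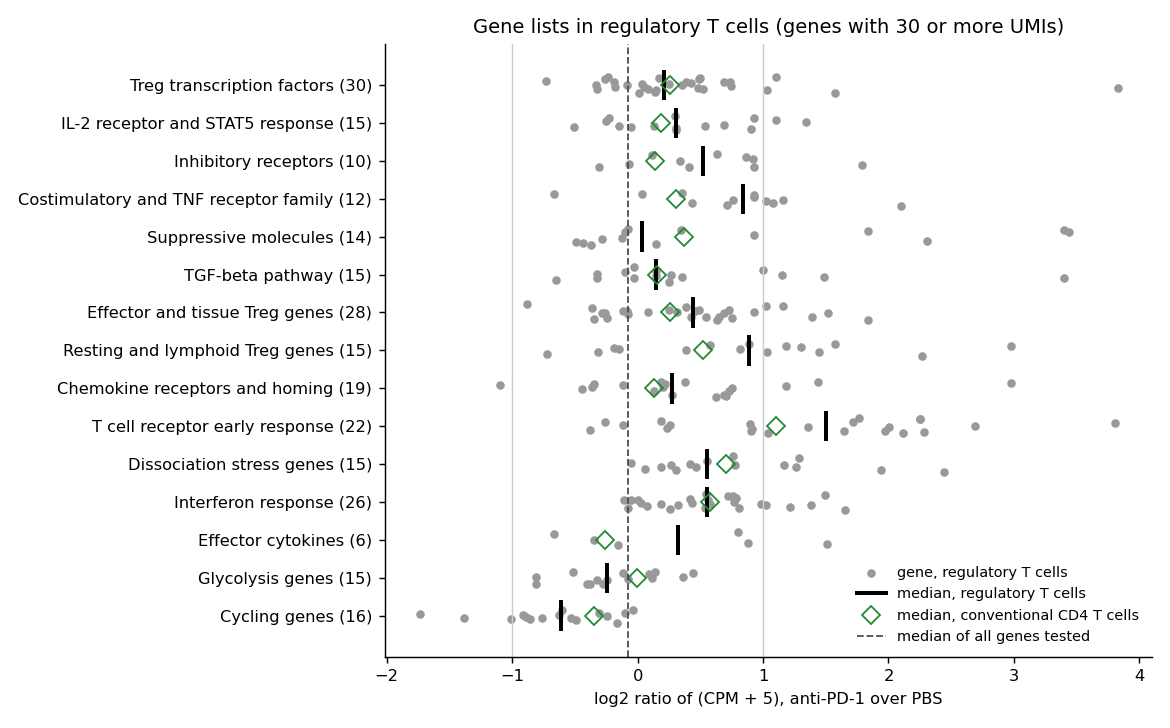
Log2 ratio of (CPM + 5), anti–PD-1 over PBS, for each gene with 30 or more UMIs in 15 lists (number of genes in parentheses). Bars are list medians in regulatory T cells, diamonds are medians of the same genes in conventional CD4 T cells, the dashed line is the median of all 6386 genes, and thin lines mark 2-fold. The early T cell receptor response has the highest median (1.50) and cycling genes the lowest (−0.61, but 0.42 over 5 genes after thinning).

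Interferon-induced genes were higher in 23 of 26, with 5 at least 2-fold higher and a median of 0.55 (0.58 in conventional CD4 T cells). *Ifi27l2a* had 613 and 1360 UMIs, or 787 and 2491 CPM. *Isg15* had 51.4 and 154 CPM, and *Irf1* 146 and 302. For *Irf1* the ratio of 1.02 became −0.39 among members with at most 2 lineage UMIs. Effector cytokine genes were rare in both libraries: *Ifng* had 25 and 10 UMIs and *Tnf* had 21 and 11. *Ccl5*, a chemokine gene, had 629 and 1101 CPM in members, against 964 and 3626 in conventional CD4 T cells. Its ratio of 0.80 turned to −1.01 (−1.37 to −0.63) among male-type members.

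Cycling genes were lower with anti–PD-1 in all 16 genes tested at full depth, 3 of them at least 2-fold (median −0.61). The direction turned after thinning to 1000 UMIs per cell, where the median over the 5 genes left was 0.42. *Mki67* had 423 UMIs in 49 PBS members and 87 in 22 anti–PD-1 members, or 543 (493 to 597) and 159 CPM (128 to 197), and a single cell supplied up to 57 of these UMIs. *Cdk1* had 62 and 15 UMIs, with a ratio of −1.38. Summed over the list, the levels were 4086 and 2728 CPM. The share of cycling members differed less at full depth, at 25.4% (19.2 to 32.4) and 23.6% (16.4 to 32.1). That share depends on depth, and at 1000 UMIs per cell it was 11.7% (7.37 to 17.3) and 8.13% (3.97 to 14.4). In CD8 T cells the list had a median of 0.70. Glycolysis genes were lower in 10 of 15 and higher in 5, none of them by 2-fold, with *Gapdh* at 2057 and 1735 CPM and *Ldha* at 890 and 735. Among male-type members the median over 11 glycolysis genes was 0.30.

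Beyond the lists, the gene with the lowest ratio was *Tff1*, which encodes a secreted trefoil peptide of mucosa. It gave 243 UMIs in 58 PBS members and 13 in 4 anti–PD-1 members, or 312 (274 to 354) and 23.8 CPM (12.7 to 40.7), with a log2 ratio of −3.46. Conventional CD4 T cells had 101 and 20.03 CPM, with a ratio of −2.08. CD8 T cells had 2.10 and 2.08, and cells with no UMI of the 5 T cell genes were at 3.71 and 0.201. Its level was thus highest in the members and conventional CD4 T cells among these populations. *H1f5*, *Knl1*, *Cep55*, *Fbxo5*, *Prc1* and *Diaph3*, which act in chromatin or cell division, were also among the 15 lowest, with ratios from −2.78 to −1.68. After thinning *H1f5* had 0.23 and *Knl1* changed sign as well, and *Prc1* changed sign with at most 2 lineage UMIs. *Tsen54*, a subunit gene of the tRNA splicing endonuclease, had 30 and 1 UMIs. Among the 15 highest were *Ifrd1* (44 and 263 UMIs) and *Gramd3* (27 and 136). *G0s2*, *Thbs1* and *Plaur* were there too, with 1, 6 and 4 UMIs against 41, 38 and 29. A single anti–PD-1 member supplied 23 of the 41 *G0s2* UMIs, and a single one 20 of the 38 *Thbs1* UMIs. In neutrophils the 3 genes stood at 709.8, 396 and 340.3 CPM with PBS and 3449.6, 1695 and 1312 with anti–PD-1.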

How the data were processed

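The 2 gene-by-cell matrices hold deposited raw UMI counts, made by the authors from 1 Singleron library per group with Cell Scope and mm10, and not normalized. The submitters' processing notes also name Seurat 4.3. Of 32589 gene identifiers, 32522 were found in GENCODE vM21, the source of coordinates.

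The members and gene lists were chosen with earlier results of these data known. UMIs were summed over cells of each library and population, and CPM were given with exact Poisson intervals, shares with exact binomial (Clopper-Pearson) intervals and log2 ratios of (CPM + 5) with intervals from the exact binomial split, in Python 3.11.15 (numpy 2.4.6, scipy 1.17.1, pandas 2.3.3). UMIs of PCR products were collapsed by the authors; intervals cover counting error only, and a share of 0 is given with the limit of 3 counts. Regulatory and conventional CD4 T cells were compared with edgeR 4.0.16 in R 4.3.3 (TMM, filterByExpr, quasi-likelihood test, 4 sums, common dispersion 0.00802) and, as an alternative, DESeq2 1.42.0; p-values measure the spread between 2 libraries that also differ in treatment. Genes were named from 27 lists (every measured gene could be named, led by those with 20 or more UMIs), from the 15 highest and 15 lowest ratios among genes with 30 or more UMIs and 10 or more cells in the higher library, and from the 15 highest and lowest edgeR calls, leaving out unnamed gene models and mitochondrial and ribosomal protein genes. Epithelial cells were cells with no T cell gene and a UMI of *Epcam* and *Krt19*, without *Cd79a* and *C1qa*; neutrophils carried 3 or more of 5 neutrophil genes. Scripts were tested on simulated data. A few genes of the lists are not reported here.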

Additional observations from a re-analysis of the deposited data

Results flagged for a closer look

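The difference between regulatory and conventional CD4 T cells lay on opposite sides of 0 in the libraries for 6 named genes, each with an interval that leaves out 0 in both libraries, and with 1 library per group the change between libraries was not tested. Values are log2 ratios of regulatory over conventional CD4 T cells. *Rel*, an NF-κB subunit gene, had −0.49 with PBS and 0.39 with anti–PD-1. *Ifrd1*, a transcriptional coregulator gene, had −0.59 and 0.49. For *Klf4* the values were −0.93 and 0.71, and for *Penk* −0.83 and 0.41, the latter from 28 and 12 members with a UMI, and its anti–PD-1 over PBS ratio turned from −0.43 to 0.71 with no upper limit on detected genes. *Mrpl35*, a mitochondrial ribosomal protein gene, had 0.55 and −0.93, and *Tsen54* had 0.82 and −1.41, with a single UMI in the anti–PD-1 members.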

How the results depend on the processing

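No paired analysis was possible because each group has 1 library and the shared replicate number pairs nothing. The difference in share of T cells was −1.93 percentage points and of kept cells −0.41, and thinning to 1000 UMIs gave −1.10 and −0.19. The counts of genes 2-fold higher and lower (207 and 207) were 64 and 40 after thinning, 355 and 571 for genes with 10 or more UMIs, 501 and 907 with 1 or more, 269 and 102 among male-type members (a Y-linked but no *Xist* UMI), and 146 and 305 with at most 2 lineage UMIs. Calls against conventional CD4 T cells (250 higher, 347 lower) were 45 and 55 in DESeq2, 5 and 3 without the library block, and 51 and 86 after thinning, which leaves 4129 genes to test. List medians moved as follows. After thinning, the IL-2 list was at −0.054, inhibitory receptors at −0.21 (3 genes) and cycling genes at 0.42 (5 genes). With at most 2 lineage UMIs the IL-2 list was at 0.012. Without cycling members the cycling list was at 0.17 and effector cytokines at 0.79 (2 genes), and this alternative, chosen after seeing the data, removes cells by the cycling genes themselves and so tests nothing about them. Effector cytokines were at 0.95 with 2 or more *Foxp3* UMIs, 0.81 with 3 of 5 T cell genes and 0.80 with no UMI minimum beyond 1. The early response was at 1.95 with a *Foxp3* and a *Cd4* UMI and 1.04 for genes with 1 or more UMIs. Among male-type members, the TGF-β list was at 0.83 and glycolysis at 0.30. Of these counts, shares and medians, the other 252 recomputed values lay within 1.5 times the count, the counting interval of the share or, for a list, the median bounds of its genes' intervals. Among the 252, 8 medians near 0 changed sign. The defining markers (0.035) were at −0.043 after thinning and −0.095 without cycling members. The suppressive molecules (0.036) were at −0.073 with 2 or more *Foxp3* UMIs, −0.126 without cycling members, and −0.086 with either lower UMI minimum, and the TGF-β list (0.148) at −0.0055 with at most 2 lineage UMIs and −0.0498 without cycling members. Of the 84 genes of the lists or extreme ratios with a 2-fold difference or more, 1092 values were recomputed, 170 moved outside their interval and 19 reversed. Reversed after thinning were *H1f5* (0.23), *Knl1* (0.77), *Rcan3* (0.99), *Bach2* (−0.35), *Bcl6* (−0.56), *Top2a* (0.42) and *Cdk1* (2.46). With at most 2 lineage UMIs *Prc1* (0.32), *Tnfrsf1a* (−0.46), *Irf1* (−0.39), *Gbp2* (−0.69) and *Cdk1* (0.41) reversed. Without cycling members *H1f5* (0.081), *Top2a* (0.49) and *Cdk1* (0.65) did, among male-type members *Parn* (1.15, from 0 and 2 UMIs), *Smad7* (−0.22) and *Ddx3y* (−0.23), and with 2 or more *Foxp3* UMIs *Bach2* (−0.015). Genes under 2-fold that changed sign, such as *Ccl5*, *Lgals3* and *Il2rb* among male-type members, are outside this count. The cause of these changes was not tested, except that thinning and the stricter rules leave fewer cells and UMIs. Depth limits genes under 30 UMIs, for which a 2-fold difference often lies within counting error.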
